A study of Mus musculus with 2 samples.

Results

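The genes described are the mouse microRNA genes of the mir-99/100 family (Mir99a, Mir99b and Mir100) and of the mir-125 family (Mir125a, Mir125b-1 and Mir125b-2). They were chosen by gene symbol, with earlier results of these data known, and all 6 were found among the 1973 microRNA genes in both count tables. They lie in 3 paralogous clusters, each of which also holds a let-7 gene. RNA of microRNA size came from heart of mixed-sex B6NCrl mouse embryos at embryonic day 12.5. The study holds 1 group of 2 biological replicates with 1 library each and no treated, mutant or other control group, so no conditions could be compared. Both replicates cite the same donor record and pooled embryos of both sexes, and no label gives the number of hearts or litters, so the spread between them may be partly technical. Counts came from whole heart, in which fewer cells of a type and less RNA per cell cannot be told apart.

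The mir-99/100 family is among the oldest known microRNA families of animals, and in many bilaterians mir-100, let-7 and mir-125 lie together in a single cluster. The mir-125 family contains the vertebrate relatives of lin-4 of Caenorhabditis elegans, which was found, like let-7, through its role in the timing of larval development. In mammals, mir-99/100 is known for repressing mTOR and the receptor of insulin-like growth factor 1, and mir-125 for repressing Lin28, which in turn blocks the maturation of let-7. A microRNA recognises its targets mainly through its seed, bases 2 to 8 counted from the 5′ end.

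The mature 5p arms bear on what could be counted at each gene. They are shown here 5′ to 3′ from RefSeq on GRCm38.p6 with the seed in capitals. miR-351-5p, from a gene outside both families, is shown because it carries the mir-125 seed, and miR-10a-5p because mir-10 is a relative of mir-99/100.
miR-99a-5p: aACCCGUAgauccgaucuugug
miR-100-5p: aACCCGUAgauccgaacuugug
miR-99b-5p: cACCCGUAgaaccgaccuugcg
miR-10a-5p: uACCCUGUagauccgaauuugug
miR-125a-5p: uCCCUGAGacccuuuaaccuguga
miR-125b-5p: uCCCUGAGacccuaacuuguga
miR-351-5p: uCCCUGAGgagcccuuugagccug

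The 3 mir-99/100 genes share 1 seed. Their 5p arms nevertheless differ, so that each could be told from the others. With positions counted from 1 at the 5′ end, miR-99a-5p and miR-100-5p differ by the single substitution U16A. The first 15 bases of these arms are identical, so among reads of the 5p arms only those that extend past base 15 separate Mir99a from Mir100. miR-99b-5p differs from miR-99a-5p by A1C, U11A, U16C and U21C. miR-10a-5p has another seed and lies 3 edits (substitutions, insertions or deletions) from miR-100-5p.

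For the mir-125 genes, the 5p arms of Mir125b-1 and Mir125b-2 are the same 22 bases, whereas their 3p arms match at 17 of 22 bases. These 3p arms are shown because they can tell the copies apart, with bases 2 to 8 again in capitals.
miR-125b-1-3p: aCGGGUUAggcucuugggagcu
miR-125b-2-3p: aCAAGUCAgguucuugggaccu

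All 12 mature arms of the 6 genes were searched on both strands of 3207 microRNA hairpin records. Of these arms, 10 had no exact match outside their own locus. The other 2 were the miR-125b-5p arms, each found in the hairpin of the other copy. With 1 mismatch allowed, 4 arms matched another locus, because miR-99a-5p and miR-100-5p then also match each other. The deposited tables list reads that map to more than 1 place in a row of their own, apart from every gene. An exact read of miR-125b-5p fits both copies, so the counts of Mir125b-1 and Mir125b-2 do not measure the total of mature miR-125b. The levels of these 2 genes, and of the mir-125 family as a whole, are uncertain for this reason.

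Sense counts of microRNA genes came to 4478599 out of 9235580 reads for replicate 1 and 5279908 out of 10601121 for replicate 2. Levels are given in CPM, the usual depth-scaled unit, over the sense counts of the library, and means carry the SD over both libraries (n = 2). They were not divided by length, since a read is taken as 1 mature arm and the arms of the 6 genes have 21 to 24 bases. The 2 libraries were not the same library sequenced again, because their counts differed by a chi-square of 54.6 per degree of freedom over 444 genes. Heart markers were high: the cardiomyocyte microRNAs Mir208a, Mir208b and Mir499 summed to 62941 CPM, the endothelial Mir126a stood at 67897 CPM, and Mir143 and Mir145a of smooth muscle and mesenchyme summed to 89645 CPM. Among markers of other cells, the sums were 1368 CPM for red cell precursors, 731 CPM for epithelium, 316 CPM for white blood cells and 107 CPM for the liver microRNA Mir122. The summed level for red cell precursors was 926 CPM in replicate 1 and 1811 CPM in replicate 2, and Mir122 had 181 and 32.4 CPM. Only 2 of 6 neural names matched a gene in the tables, at a summed 1.38 CPM. The neural names are numbered copies of Mir124 and Mir9, and reads that fit more than 1 copy would be in no gene count. Their sum therefore does not measure the neural part. The part of these other cells in the levels of the 6 genes was not tested.

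The 6 genes together took 10.1% ± 0.182 (SD, n = 2) of the heart's sense counts, with 10.2% in replicate 1 and 9.92% in replicate 2. With all reads as denominator the shares were 4.94% for the 6 genes, 4.77% for the mir-99/100 genes and 0.169% for the mir-125 genes. For the share of sense counts, the exact 95% binomial intervals were 10.15% to 10.21% and 9.90% to 9.95%. Intervals cover counting error only, since none includes the spread between replicates. They may be too narrow even for that, because reads without molecular identifiers are not independent molecules. The mir-99/100 genes held 96.6% ± 0.266 (SD, n = 2) of the counts of the 6, against 3.43% ± 0.266 (SD, n = 2) for the mir-125 genes. As shares of all sense counts these were 9.71% ± 0.203 and 0.344% ± 0.0205 (SD, n = 2 each). The gap between the families was many times the spread between replicates, but any uncounted miR-125b reads are missing from the mir-125 side.

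Mir99a had the most counted reads of the 6. It had 331706 counts (74065 CPM) in replicate 1 and 381962 counts (72342 CPM) in replicate 2, or 73204 ± 1218 CPM. It ranked 4th of all genes by sense counts in both libraries. Reads that mapped to more than 1 place are in no gene's count. This rank and those below therefore hold among counted reads only, and genes with identical copies may stand too low. It lay below Mir322, a gene of the X-linked cluster that also holds Mir351, and above the endothelial Mir126a in each library.

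Mir99b had 81960 counts (18300 CPM) in replicate 1 and 91647 counts (17358 CPM) in replicate 2, or 17829 ± 667 CPM. Its rank by the mean was 15, with 14 in replicate 1 and 16 in replicate 2. It did not differ beyond the spread from its neighbours in the order, Mir130a at 18421 ± 297 CPM and Mir30a at 17655 ± 1304 CPM, and their order with Mir99b changed between the libraries. Mir100 had 27494 counts (6139 CPM) in replicate 1 and 31352 counts (5938 CPM) in replicate 2, or 6038 ± 142 CPM. It ranked 27th in both libraries, below Mir411 at 6721 ± 319 CPM and above Mir127 at 5493 ± 214 CPM, each in the same order in both. Both of these neighbours come from the imprinted Dlk1-Dio3 region.

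Mir125a had the most counted reads of the mir-125 family, with 10645 counts (2377 CPM) in replicate 1 and 13977 counts (2647 CPM) in replicate 2. Its mean was 2512 ± 191 CPM, the largest relative spread of the 6 (7.61% of the mean). Its rank of 51 was not fixed, being 51 in replicate 1 and 45 in replicate 2, and Mir181c at 2531 ± 11.8 CPM and Mir92-1 at 2394 ± 139 CPM lay within its SD. Both miR-125a arms are found in no other hairpin exactly, unlike miR-125b-5p. Whether Mir125a would still lead with any uncounted miR-125b-5p reads included was not measured.

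Mir125b-2 had 2725 counts (608 CPM) in replicate 1 and 3288 counts (623 CPM) in replicate 2, or 616 ± 10.1 CPM. Mir125b-1 had 1398 counts (312 CPM) in replicate 1 and 1677 counts (318 CPM) in replicate 2, or 315 ± 3.87 CPM. The copies thus ranked 98th and 121st, and their libraries did not overlap. The mean of Mir125b-2 did not differ beyond the spread from that of Mir154 (623 ± 52.4 CPM), nor that of Mir125b-1 from those of Mir323 (323 ± 39.6 CPM) and Mir185 (307 ± 11.2 CPM). For scale, 712 genes had a sense count in either library, with a median of 2.53 CPM, and 77 genes reached 1000 CPM in both. No read was counted on the strand opposite to any of the 6 genes, so that 3 counts, or 0.670 CPM for replicate 1 and 0.568 CPM for replicate 2, is the upper limit at each.

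**Figure D1:**
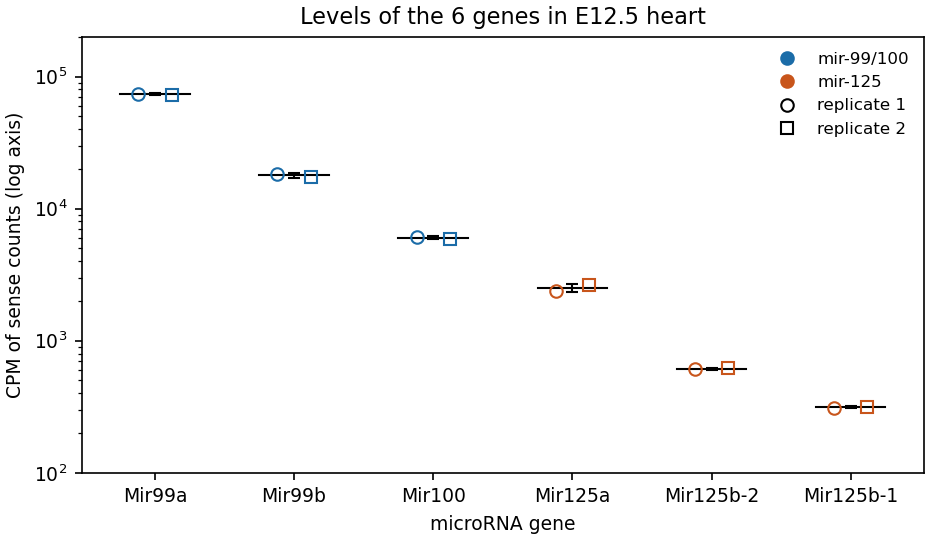
Level of each gene in CPM of the sense counts (log axis) in replicate 1 (circles) and replicate 2 (squares), with the mean (line) and SD (bar, n = 2). The order runs from Mir99a at 73204 CPM to Mir125b-1 at 315 CPM, and no 2 genes overlap.

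**Figure D2:**
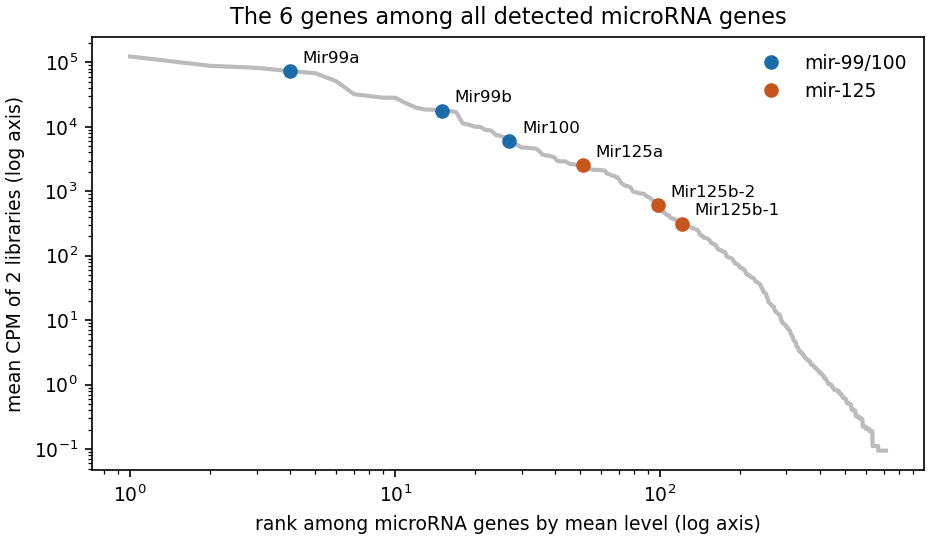
Mean CPM of the 2 libraries (log axis) against rank (log axis) for the 712 genes with a count (grey line), with the 6 genes marked. By counted reads, Mir99a ranks 4, Mir99b 15, Mir100 27, Mir125a 51, Mir125b-2 98 and Mir125b-1 121.

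Within the mir-99/100 family the ratios between genes were close in the 2 libraries. Mir99a exceeded Mir99b by a ratio of 4.05 in replicate 1 and 4.17 in replicate 2 (4.11 ± 0.0853, SD, n = 2). Mir99a exceeded Mir100 by 12.1 in replicate 1 and 12.2 in replicate 2 (12.1 ± 0.0837, SD, n = 2). Mir99b exceeded Mir100 by 2.95 ± 0.0409 (SD, n = 2). Mir99a thus supplied 75.4% ± 0.320 of the mir-99/100 counts, Mir99b 18.4% ± 0.303 and Mir100 6.22% ± 0.0166 (SD, n = 2 each).

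Mir125a exceeded Mir125b-2 by a ratio of 4.08 ± 0.244 and Mir125b-1 by 7.97 ± 0.509 (SD, n = 2 each). It supplied 72.9% ± 1.21 of the counted mir-125 reads, against 17.9% ± 0.773 for Mir125b-2 and 9.16% ± 0.434 for Mir125b-1 (SD, n = 2 each). The copies with the shared 5p arm stood in a ratio of 1.95 in replicate 1 and 1.96 in replicate 2, Mir125b-2 over Mir125b-1 (1.95 ± 0.00808, SD, n = 2). These counts summed to 4123 and 4965 in replicates 1 and 2, while 2503492 and 2677232 reads mapped to more than 1 place. That is 607 and 539 such reads for each counted read of a Mir125b copy, and the tables do not say from which microRNAs they came. The ratios of both Mir125b copies to other genes are therefore uncertain, Mir125a included. All of these ratios differ from 1 by more than their SD. They were given no test, since the smallest two-sided p that an exact sign-flip permutation test allows with 2 libraries is 0.5.

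The members were next compared with their neighbours in the genome. Positions are those of GENCODE M21 on GRCm38 (mm10), all on the plus strand. The first cluster lies on chromosome 16 in introns of the long noncoding RNA gene Mir99ahg. Mir99a (ENSMUSG00000065530.1) spans 77598936 to 77599000 and Mir125b-2 (ENSMUSG00000065472.1) spans 77646273 to 77646343, with Mirlet7c-1 between them at 77599657 to 77599750. Mir125b-2 also overlaps an exon of C130023A14Rik, an entry of the same strand whose type in the annotation is TEC, a putative transcript still awaiting experiment. The protein-coding gene Gm11146 of the opposite strand has an intron over Mir99a and Mirlet7c-1.

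The second cluster lies on chromosome 9 in introns of the noncoding genes 3110039I08Rik and Gm49317. Mir100 (ENSMUSG00000093011.1) spans 41531425 to 41531504 and overlaps an exon of the opposite-strand noncoding gene Gm48742. Mirlet7a-2 spans 41536716 to 41536811. Mir125b-1 (ENSMUSG00000093354.1) spans 41581926 to 41582002, inside an exon of the sense-intronic noncoding gene Gm28119.

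The third cluster is far more compact and lies on chromosome 17 within the protein-coding gene Spaca6, known for its role in the fusion of sperm and egg. Mir99b (ENSMUSG00000065396.1) spans 17830188 to 17830257 and is intronic, as is Mirlet7e at 17830352 to 17830444. Mir125a (ENSMUSG00000065479.1 in the tables) spans 17830812 to 17830879 and overlaps an exon in 1 of the 3 Spaca6 transcripts over it. Start to start, Mir99b and Mir125a are 0.624 kb apart, against 47.3 kb for Mir99a and Mir125b-2 and 50.5 kb for Mir100 and Mir125b-1.

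In each of the 3 clusters the mir-99/100 gene had the most counted reads in both libraries. In the clusters of Mir99a and Mir100, any reads of the partner genes that mapped to more than 1 place were left out. The order in those clusters is therefore uncertain. Mir99a exceeded Mir125b-2 by a ratio of 122 in replicate 1 and 116 in replicate 2 (119 ± 3.93, SD, n = 2). Mir100 exceeded Mir125b-1 by 19.7 in replicate 1 and 18.7 in replicate 2 (19.2 ± 0.687, SD, n = 2). In the compact cluster Mir99b exceeded Mir125a by 7.70 in replicate 1 and 6.56 in replicate 2 (7.13 ± 0.808, SD, n = 2). This last ratio is the one in which no arm of either gene is shared with another hairpin, and in the other 2 any miR-125b-5p reads that mapped to more than 1 place are not in the count of the Mir125b copy.

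The let-7 neighbours, whose products accumulate as tissues mature, had very unequal counted levels. Mirlet7c-1 had 221 counts (49.3 CPM) in replicate 1 and 232 counts (43.9 CPM) in replicate 2, and Mirlet7a-2 had 192 counts (42.9 CPM) and 179 counts (33.9 CPM). Mir99a exceeded Mirlet7c-1 by a ratio of 1574 ± 103 and Mir100 exceeded Mirlet7a-2 by 159 ± 22.6 (SD, n = 2 each). The 5p arm of Mirlet7c-1 is also found exactly in Mirlet7c-2, so its level is uncertain. The level of Mirlet7a-2 is uncertain too, because the annotation holds another let-7a gene, Mirlet7a-1. The gap between these 2 genes and Mirlet7e, described next, may partly reflect which reads could be counted, which was not tested.

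The tables hold no gene row named Mirlet7e. At its place they count Gm25927, annotated on the opposite strand, which had 0 sense counts in both libraries and 14484 and 15186 counts on the strand of Mirlet7e in replicates 1 and 2. Read as Mirlet7e, these gave 3055 ± 253 CPM of the sense total (SD, n = 2). Mir99b exceeded this level by a ratio of 5.85 ± 0.266, and the level of Mirlet7e exceeded that of Mir125a by 1.22 ± 0.194 (SD, n = 2 each). The order of Mirlet7e over Mir125a held in both libraries, at 1.36 in replicate 1 and 1.09 in replicate 2. No arm of Mirlet7e has an exact match in another hairpin, although let-7e-5p matches both let-7a hairpins with 1 mismatch. Of the cluster's counts Mir99b took 76.2% ± 0.477, Mirlet7e 13.0% ± 0.675 and Mir125a 10.8% ± 1.15 (SD, n = 2 each).

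**Figure D3:**
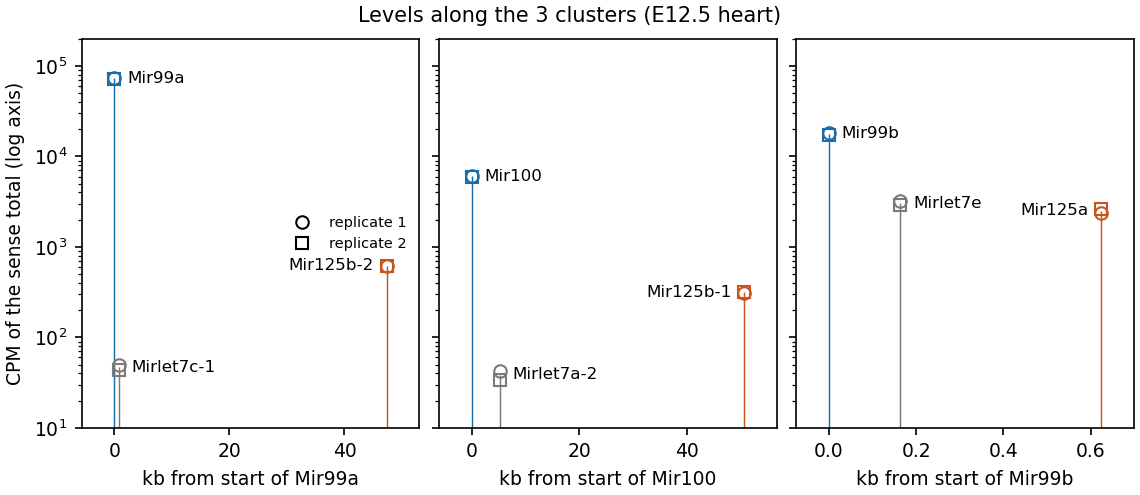
CPM of the sense total (log axis) against distance in kb from the start of the first gene in each cluster, for replicate 1 (circles) and replicate 2 (squares); lines drop from the mean, blue marks mir-99/100, orange mir-125 and grey let-7. Mirlet7e is drawn from the opposite-strand counts of Gm25927, at 3055 CPM, close to Mir125a at 2512 CPM. Mirlet7c-1 and Mirlet7a-2 lie below 50 CPM, without any reads that mapped to more than 1 place.

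Genes were also grouped by the seed of their 5p arm. Among 617 genes of the tables with a 5p arm in the RefSeq table, the mir-99/100 seed was found in 3, which were Mir99a, Mir99b and Mir100. Their summed level was 98504 CPM in replicate 1 and 95638 CPM in replicate 2 (97071 ± 2026 CPM, SD, n = 2). The mir-10 seed, found in Mir10a and Mir10b of the Hox clusters, had a summed level of 1907 ± 103 CPM (SD, n = 2). Gene counts hold both arms of a hairpin, so these sums are not levels of the 5p arms alone.

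The mir-125 seed was found in 4 genes, the 3 mir-125 genes and Mir351 of the X-linked cluster. Mir351 had 25093 CPM in replicate 1 and 31395 CPM in replicate 2 (28244 ± 4456 CPM, SD, n = 2). It took 89.1% ± 0.961 of the summed level of these 4 genes, against 7.97% ± 0.569 for Mir125a, 1.96% ± 0.257 for Mir125b-2 and 1.00% ± 0.135 for Mir125b-1 (SD, n = 2 each). Mir351 exceeded Mir125a, the unambiguous mir-125 gene, by a ratio of 10.6 in replicate 1 and 11.9 in replicate 2 (11.2 ± 0.921, SD, n = 2). The summed level holds no read that mapped to more than 1 place, so any such reads of miR-125b-5p are missing from it. What was counted for the Mir125b copies may be mostly their 3p arms, which carry other seeds. The arm of the counted reads was not measured, and these shares are of the counted reads and uncertain. Beyond their seed miR-125a-5p and miR-351-5p diverge at once, with the first 8 bases identical and 7 edits over the whole length. Summed by seed, the counted reads came to 97071 CPM for the mir-99/100 seed and 31686 ± 4661 CPM for the mir-125 seed with Mir351 (SD, n = 2).

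**Figure D4:**
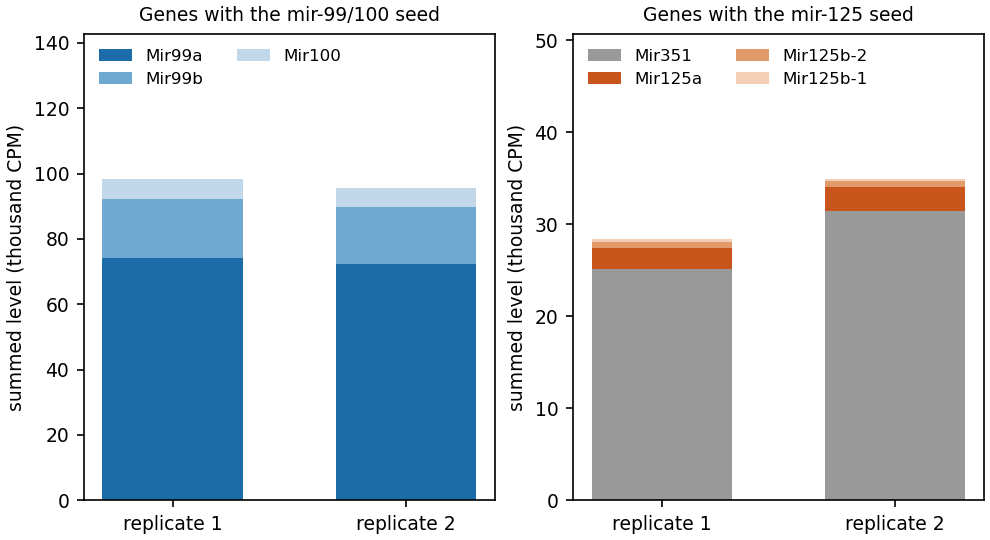
Summed level, in units of 1000 CPM, of the sense counts of the genes whose 5p arm carries the mir-99/100 seed (left) and the mir-125 seed (right), in each library, stacked by gene; the vertical scales differ. Mir99a makes up 75.4% of the left stacks and Mir351, a gene outside the mir-125 family, 89.1% of the right ones, in which any miR-125b-5p reads mapping to more than 1 place are not counted.

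The 2 libraries gave closely matching levels for the 6 genes. Over the 444 genes with at least 10 counts in total, 7 (1.58%) differed by 2-fold or more between the libraries on the log2(CPM + 1) scale, and 0 of the 6 did. The median absolute log2 difference was 0.04 for the 6 genes and 0.17 for all 444. The 6 genes are counted more deeply than most, and they were not set apart from other genes by a test. Each side is 1 library, so no p-value is given.

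Mir125a showed the widest difference of the 6, at 2647 CPM in replicate 2 against 2377 CPM in replicate 1 (log2 difference 0.16, ratio 1.11, exact 95% counting interval 1.09 to 1.14). Mir99a (ratio of replicate 2 over replicate 1 of 0.977, interval 0.972 to 0.981), Mir99b (0.948, interval 0.940 to 0.957) and Mir100 (0.967, interval 0.952 to 0.983) were slightly lower in replicate 2. For Mir125b-1 (1.02, interval 0.947 to 1.09) and Mir125b-2 (1.02, interval 0.973 to 1.08) the interval held 1. Thus the interval left out 1 for 4 of the 6 genes, and for 158 of the 444 genes (35.6%). Such intervals hold counting error alone and narrow with depth, so they compare these 2 libraries and do not show a difference beyond biological spread. With all 3 mir-99/100 genes slightly lower and Mir125a slightly higher in replicate 2, the ratio of Mir99b to Mir125a was the cluster ratio with the widest relative spread among the 3 between mir-99/100 and mir-125 genes.

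**Figure D5:**
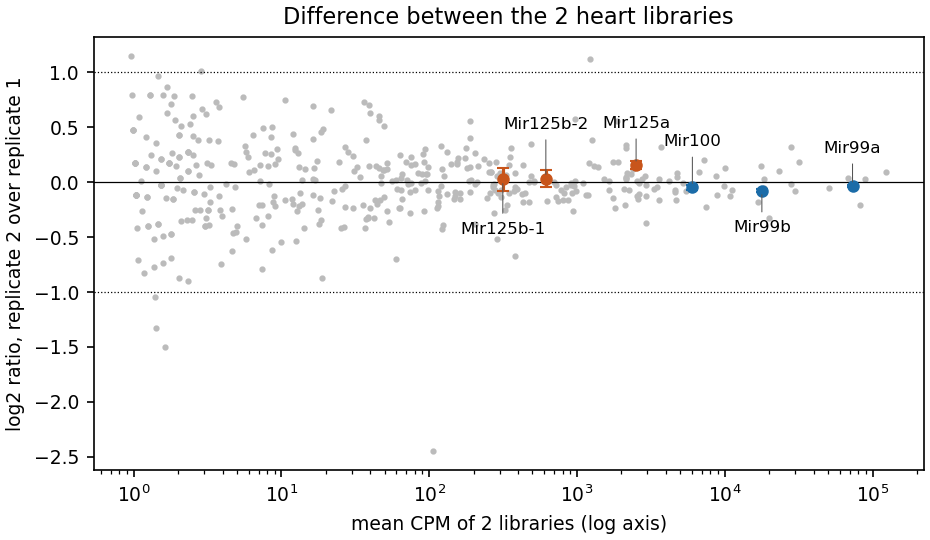
Log2 ratio of replicate 2 over replicate 1 against the mean CPM (log axis) for 444 genes (grey), with the 6 genes in colour (blue mir-99/100, orange mir-125) and their exact 95% counting intervals; dotted lines mark a 2-fold difference. All 6 lie well inside the lines, from −0.08 for Mir99b to 0.16 for Mir125a.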

How the data were processed

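Small RNA was sequenced from 2 replicates of mouse heart at embryonic day 12.5. The authors deposited 1 table of raw read counts by microRNA gene for each library, on assembly mm10 with annotation M4, per the deposited descriptions. Which aligner and which counter made them is not given in the sources used here. A table has 3 count columns without names, read from their totals as unstranded, sense and opposite-strand, and sense counts were used. Each opens with 4 rows that name no gene, kept out of the sense totals and so of CPM. The number of all reads holds these rows and the unstranded gene counts. In replicates 1 and 2, multi-place reads made up 27.1% and 25.3% of all reads and reads without a place 18.1% and 19.1%. Reads outside sense genes made up 6.29% and 5.88%, and ambiguous reads 0.

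Identifiers were matched without version to GENCODE M21, where 1894 of 1973 genes had a name. Mature sequences came from RefSeq (GRCm38.p6), which held all 6 genes. Hairpins were those of GENCODE M21 and RefSeq. CPM used the sum of sense counts. A pseudocount of 1 CPM preceded log2. Ratios between libraries had exact conditional binomial intervals, tested on counts simulated with counting error alone. The simulation held no further spread between libraries, so it cannot show how the intervals cover the spread of these data. Scaling alternatives used TMM from edgeR 4.0.16 and size factors from DESeq2 1.42.0 in R 4.3.3. Other steps used Python 3.11.15, numpy 2.4.6, pandas 2.3.3, scipy 1.17.1 and matplotlib 3.10.9. A count of 0 was taken to allow 3 counts. Other alternatives changed the strand column, denominator, pseudocount, filter, mismatches and seed arm, and left out each replicate.

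Named genes were the 6 members, the let-7 genes of their clusters, genes sharing a seed, Mir10a and Mir10b, neighbours in rank, overlapping genes and fixed cell type markers. Mirlet7a-1 and Mirlet7c-2 are named as loci sharing let-7 sequence. The members and lists were chosen with earlier results of these data known. With 1 condition, likeness of expression pattern could not be measured.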

Additional observations from a re-analysis of the deposited data

Results flagged for a closer look

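Reads outside the sense counts bore on these families at a pair of points. Opposite to Gm25927, on the strand and at the place of Mirlet7e, stood 3055 CPM of the sense total, with 14484 and 15186 counts in replicates 1 and 2 where a count of 0 allows 0.670 and 0.568 CPM. Reads that mapped to more than 1 place were 26.2% of all reads on average, and no table assigns them to genes, so the share that came from miR-125b-5p was not measured. With 2 libraries in 1 group, single outlying libraries and differences between groups could not be examined.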

How the results depend on the processing

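Over 41 results and 188 alternatives, no direction reversed, and 162 alternatives stayed within the spread between replicates, the counting interval or 1.5 times the count reported. Part of this was fixed in advance. With 2 libraries each value lies within the SD of their mean, so leaving out a replicate could not move a level, share, ratio or summed level. Levels, shares, ranks and counts are never negative, so they could not reverse. With counts taken without regard to strand, the shares of the 6 genes and of the mir-99/100 genes were 9.61% and 9.28%, and the mir-99/100 seed summed to 92808 CPM; the counts of the 6 genes stayed the same and the denominator grew. With all reads as denominator, the shares were 4.94% for the 6 genes, 4.77% for mir-99/100 and 0.169% for mir-125. A pseudocount of 5 CPM gave log2 ratios of 10.47 for Mir99a over Mirlet7c-1 (10.59 with 1 CPM) and 0.956 for Mir125b-2 over Mir125b-1 (0.965 with 1 CPM). With the filter raised to 100 counts, 2 of 286 genes differed 2-fold between the libraries, and with 1 mismatch 4 arms matched another hairpin. Without either replicate the 6 genes took 9.92% to 10.2% of the counts. TMM and DESeq2 scaling moved no result that used them beyond its spread. The TMM factors were 1.0004 and 0.9996 in replicates 1 and 2, so TMM could change little. DESeq2 size factors were rescaled to the library totals, so mean levels could hardly move. The level of Mirlet7e has no value from sense counts of Gm25927, which are 0. No paired analysis was possible because the study has 1 group. Among the named cluster genes counted in sense, Mirlet7c-1 and Mirlet7a-2 had the fewest counts, at 179 to 232. How well each sequence was captured during library preparation was not measured, so levels of different microRNAs may differ from their amounts in the tissue.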
